A study of Mus musculus with 9 samples.

Results

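Genes of major histocompatibility complex (MHC) class I presentation and the immunoproteasome were examined in macrophages sorted from mouse lung by RNA sequencing. The 10 genes, taken by symbol from a written list, were B2m, H2-D1, H2-K1, H2-Q6, Tap1, Tap2, Tapbp, Psmb8, Psmb9 and Nlrc5, out of 24346 gene symbols with a value. That list was chosen with earlier results of these data known. The samples came from female C57BL/6 mice at postnatal week 10 and formed 3 groups of 3. Ctrl-AM were alveolar macrophages (AMs) of control mice, whose left lung received vehicle. Tumor-AM and Tumor-macrophage were the AMs and the tumor-associated macrophages (TAMs) of mice whose left lung received LLC-tdTomato cells, a fluorescent form of the Lewis lung carcinoma line that grows in C57BL/6 mice. All samples were CD45+ autofluorescent cells. AMs were defined as Siglec-F+ F4/80+ CD11b- cells, and TAMs as Siglec-F- F4/80+ CD11b+ cells. The labels do not say whether the 3 samples of a group came from separate mice, so p-values measure the spread between these samples. The study names 3 mice per population and states that control and experimental mice were bred separately, so breeding and tumor cannot be told apart.

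Class I molecules show peptides from inside the cell to CD8+ T cells. The immunoproteasome, in which PSMB8, PSMB9 and PSMB10 take the place of the standard catalytic subunits, cuts cytosolic proteins into peptides. The TAP1-TAP2 transporter moves these into the endoplasmic reticulum, where tapasin (Tapbp) helps to load them onto a heavy chain (H2-D1, H2-K1, H2-Q6) paired with beta-2-microglobulin (B2m). NLRC5 activates class I promoters, and interferons raise most genes of the pathway in many cell types.

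Expression was given as FPKM, a level per length of transcript that is divided by the mapped reads of each sample. Estimated depth was similar, from 9510000 to 12000000 reads per sample, with relative depth from 0.906 to 1.14. Markers of the sorted populations were checked first. Summed FPKM of 5 AM markers (Siglecf, Marco, Pparg, Chil3 and Car4) ran from 24214 to 29797 over the Ctrl-AM samples, from 21366 to 38269 over those of Tumor-AM and from 152 to 458 over those of Tumor-macrophage. Chil3 made up between 95.2% and 95.8% of this sum in the AM samples. Taken singly, Pparg, a transcription factor of AMs, was lower in Tumor-AM relative to Ctrl-AM (log2 difference -0.53 ± 0.09, limma, adjusted p = 0.00455), and the other 4 did not pass the threshold, among them Siglecf (-0.23 ± 0.09, adjusted p = 0.158). The 4 markers of tumor or interstitial macrophages (C1qa, C1qb, C1qc and Cx3cr1) summed to between 13471 and 13929 FPKM in Tumor-macrophage.

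The heavy chain genes resemble each other in the bases just before their RefSeq start as well as in their transcripts. These stretches are shown because 3 heavy chain genes carry a common element before that start, and B2m matches only part of its letters as searched. Sequences are those of RefSeq on GRCm38.p6, which held 8 of the 10 genes, printed 5′ to 3′ on the strand of the gene, and capitals mark matches to the motifs described after them. The first is the 250 bases before an H2-K1 start (chr17:34000348-34000597, minus strand). The second is the 250 bases before H2-Q6 (chr17:35424600-35424849, plus strand) and the third the 249 bases before B2m (chr2:122147437-122147685, plus strand). These 3 stretches overlap no exon of the GENCODE annotation. H2-K1 has another RefSeq start, whose window (chr17:34000334-34000583) held the same types of motif and has 14 bases in exons.
H2-K1: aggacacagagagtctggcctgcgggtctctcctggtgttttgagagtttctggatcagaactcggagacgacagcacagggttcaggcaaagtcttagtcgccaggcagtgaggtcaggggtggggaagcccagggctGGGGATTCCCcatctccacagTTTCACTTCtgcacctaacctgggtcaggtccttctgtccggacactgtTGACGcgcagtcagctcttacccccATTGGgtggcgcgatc
H2-Q6: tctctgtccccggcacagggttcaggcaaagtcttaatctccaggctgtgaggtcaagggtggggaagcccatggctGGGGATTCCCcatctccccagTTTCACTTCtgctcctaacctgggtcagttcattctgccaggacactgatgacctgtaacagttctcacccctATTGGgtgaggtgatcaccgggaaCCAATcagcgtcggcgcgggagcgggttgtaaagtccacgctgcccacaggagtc
B2m: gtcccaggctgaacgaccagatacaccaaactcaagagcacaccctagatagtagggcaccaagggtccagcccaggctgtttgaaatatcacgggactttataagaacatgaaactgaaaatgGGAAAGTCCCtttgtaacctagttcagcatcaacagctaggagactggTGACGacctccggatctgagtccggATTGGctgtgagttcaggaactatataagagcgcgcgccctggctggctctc

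The motifs were searched on both strands in the 250 bases upstream of 32851 promoters, and a match describes letters, not binding. In 5 of the 8 genes (Tapbp, Psmb9, Tap1, Psmb8 and H2-D1) the searched bases lie wholly in annotated exons of GENCODE. An interferon-stimulated response element (ISRE) type motif, GAANNGAAA, was present in 3 of the 8 genes (H2-K1, H2-D1 and H2-Q6) and in 6.31% of all promoters. A kappaB-type motif, GGGNNTTNCC, was present in 4 of 8 (those 3 and B2m), against 4.11% of all. Just before its kappaB-type match, B2m reads gaaactgaaa, with GAA and GAAA at a longer gap than the ISRE-type letters allow. That form was not searched. The ISRE-type counts hold for the searched letters only and do not show that B2m lacks such an element or differs from the heavy chain genes. The CCAAT box, the Y box of class I promoters, was in 7 of 8, against 33.8%, and the X2-type motif TGACG was in 5 of 8 (B2m, H2-K1, H2-D1, Psmb9 and Tap1), against 17.8%. TTCNNNGAA, the gamma-activated site (GAS) type motif, was in 1 of 8 (Psmb8), against 7.02%. In the 3 heavy chain genes the kappaB-type and ISRE-type matches lay in the same 30 bases, shown here for H2-K1 (chr17:34000429-34000458, minus strand), H2-D1 (chr17:35262923-35262952, plus strand) and H2-Q6 (chr17:35424677-35424706, plus strand). H2-D1 and H2-Q6 each shared 29 of the 30 bases with H2-K1. The H2-D1 element precedes the RefSeq start but lies 193 bases inside the gene as GENCODE gives it.
H2-K1: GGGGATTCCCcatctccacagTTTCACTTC
H2-D1: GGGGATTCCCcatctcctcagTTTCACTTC
H2-Q6: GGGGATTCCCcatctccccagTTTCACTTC

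Similar sequence limits how far reads can be assigned. Reads were 75 bases long, and how reads that match several genes were treated was not stated. Of the 75-base windows of the transcript, 7.10% in H2-D1, 1.55% in H2-K1 and 21.1% in H2-Q6 also occurred in other genes. Allowing up to 2 mismatches to other genes of the H2 region, these shares were 18.1%, 20.4% and 53.5%. The partners of H2-Q6 included H2-Q4, H2-Q5 and H2-Q7, so its value is uncertain within this cluster. B2m and Nlrc5 shared 0 windows. Tap1 (4.79%) and Psmb9 (10.8%) shared windows with each other only, since their transcripts overlap head to head, and Tap2, Tapbp and Psmb8 shared between 3.22% and 17.5% with overlapping gene models.

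The first question was whether class I genes differed between AMs of tumor-bearing and control lungs and between AMs and TAMs. The genes formed 1 order: each of the 10 was lowest in Ctrl-AM, higher in Tumor-AM and highest in Tumor-macrophage, with no overlap between the samples of the 3 groups. That order was found in 8.3% of the 10686 genes tested. Because the 10 genes were chosen with earlier results of these data known, shares of all genes are given as background, not as a test. In Tumor-AM, 9 of the 10 were significantly higher than in Ctrl-AM (limma, adjusted p under 0.05), against 7.11% of all genes that rose and 3.18% that fell. Without the filter on low values, with 24346 genes in the adjustment, 2 of the 10 passed in this comparison (H2-K1 and Tapbp). Of those 24346 genes 348 rose, in place of 760 of 10686 with the filter. In Tumor-macrophage 10 of 10 were higher than in Tumor-AM (24.2% of all genes rose and 24.4% fell) and 10 of 10 were higher than in Ctrl-AM (27.7% rose and 27.1% fell). Groups that do not overlap, in the higher direction, were found for 18.9%, 27.6% and 31.1% of all genes in these comparisons. The 3 comparisons share samples, so they are not independent of each other.

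The median difference in log2(FPKM + 1) over the 10 genes was 0.59 for Tumor-AM against Ctrl-AM, 1.17 for Tumor-macrophage against Tumor-AM and 1.78 for Tumor-macrophage against Ctrl-AM. Medians over all genes tested were 0.01, 0.001 and -0.01. H2-Q6 and Nlrc5 reached the minimum of 1 FPKM in 3 samples only through the groups of tumor-bearing mice. Of the other 8 genes, 7 rose in Tumor-AM, and their median differences were 0.56, 1.08 and 1.63. In bulk samples, more cells of a type and more RNA per cell cannot be told apart.

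**Figure D1:**
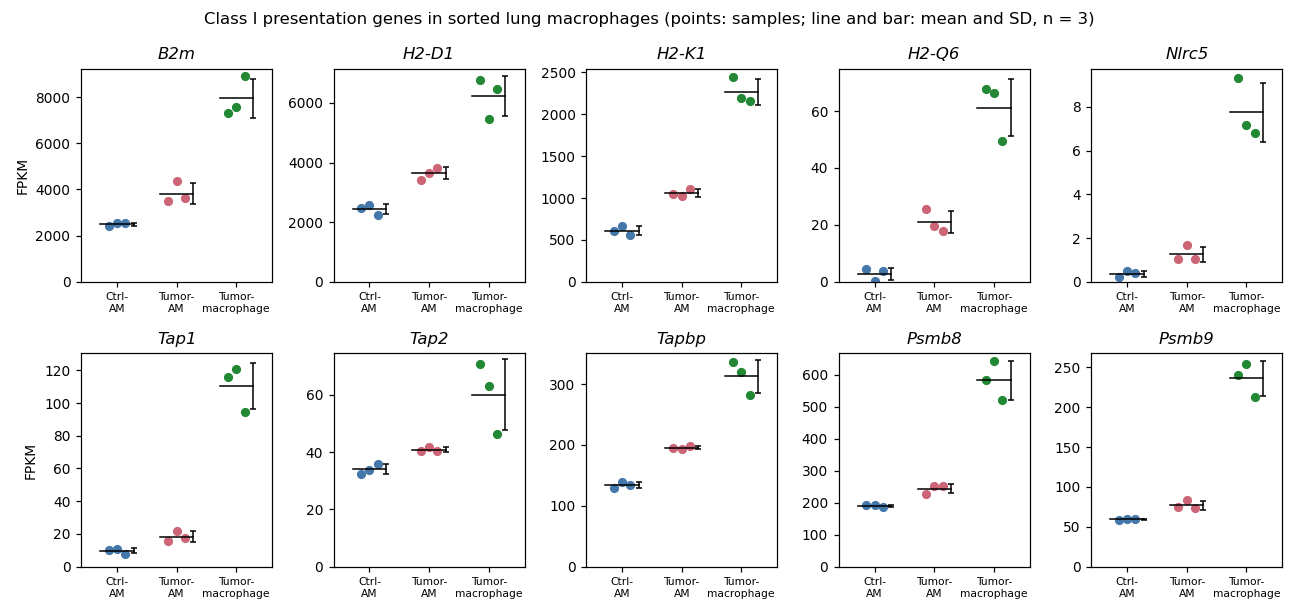
FPKM (linear axis from 0) of each of the 10 genes in the 3 groups, with 1 point per sample and the mean and SD of 3 samples. In every panel the 3 Ctrl-AM points lie below the 3 Tumor-AM points and these below the 3 Tumor-macrophage points, and the step to Tumor-macrophage is the larger one for each gene.

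B2m, the light chain common to class I molecules (ENSMUSG00000060802, chr2:122147686-122153083), was among the most abundant transcripts. Ctrl-AM samples held 2402, 2543 and 2527 FPKM, those of Tumor-AM 3483, 4356 and 3631 and those of Tumor-macrophage 7327, 7582 and 8912. All samples of Tumor-AM exceeded those of Ctrl-AM, with replicate 2 of Tumor-AM (Tumor-AM 2) the highest of them. Tumor-AM 2 was the highest of its group in 6 of the 10 genes (B2m, Tap1, Tap2, Psmb8, Psmb9 and Nlrc5). It also stood apart in the AM markers Marco (329 FPKM, against 60.2 and 95.3 in Tumor-AM 1 and 3) and Car4 (1169, against 554 and 658). Over all genes tested its log2 values correlated with those samples at r = 0.977 and 0.981, and those samples with each other at 0.978. Without Tumor-AM 2, 6 of the 10 genes passed in Tumor-AM in place of 9, with Psmb8, Psmb9 and Nlrc5 lost. Without Ctrl-AM 1 or Ctrl-AM 3, 6 also passed. Over all 10686 genes tested, 603, 406 and 424 rose without Tumor-AM 2, Ctrl-AM 1 and Ctrl-AM 3, in place of 760. Mean FPKM of B2m rose 1.54-fold in Tumor-AM (log2 difference 0.61 ± 0.11 SE, adjusted p = 0.00595). It was another 2.08-fold higher in Tumor-macrophage (1.06 ± 0.11, adjusted p = 1.41e-05), which is 3.19-fold above Ctrl-AM. Quantile normalization, which gives the samples the same set of values by rank, reduced these last log2 differences to 0.36 against Tumor-AM (adjusted p = 0.0155) and 0.88 against Ctrl-AM (adjusted p = 4.17e-05, 1.67 as fitted).

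H2-D1 and H2-K1 are the classical heavy chains, which present peptides to CD8+ T cells. H2-D1 (ENSMUSG00000073411, chr17:35262730-35267499) measured 2487, 2591 and 2245 FPKM in the Ctrl-AM samples, 3423, 3656 and 3827 in the Tumor-AM samples and 6769, 5473 and 6475 in the Tumor-macrophage samples. H2-K1 (ENSMUSG00000061232, chr17:33996017-34000347) measured 605, 672 and 558 FPKM in the Ctrl-AM samples, 1053, 1018 and 1109 in the Tumor-AM samples and 2450.1, 2191 and 2163 in the Tumor-macrophage samples. The samples of each group lay close together for both genes. Tumor-AM exceeded Ctrl-AM 1.49-fold for H2-D1 (log2 difference 0.58 ± 0.10, adjusted p = 0.00581) and 1.73-fold for H2-K1 (0.80 ± 0.09, adjusted p = 0.000506). H2-K1 was 1 of 2 genes of the set, with Tapbp, that passed the threshold in Tumor-AM in each of the 18 settings tried. A 2-fold minimum, counted apart from these settings, was reached by neither of them.

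In Tumor-macrophage H2-D1 was 1.72-fold above Tumor-AM (log2 difference 0.77 ± 0.10, adjusted p = 8.75e-05) and H2-K1 2.14-fold (1.10 ± 0.09, adjusted p = 1.87e-06). Quantile normalization set the H2-D1 difference between these groups to 0 (adjusted p = 1) and that between Tumor-macrophage and Ctrl-AM to 0.40 (adjusted p = 0.00442). The classical heavy chains were also set against their light chain. The ratio of the summed FPKM of H2-D1 and H2-K1 to that of B2m was 1.23 ± 0.10 (SD, n = 3) for Ctrl-AM, 1.24 ± 0.15 for Tumor-AM and 1.08 ± 0.16 for Tumor-macrophage. This ratio was chosen after the values were seen. No difference between groups was detectable in it (exact permutation test, two-sided, p = 0.9, 0.2 and 0.2 for Tumor-AM against Ctrl-AM, Tumor-macrophage against Tumor-AM and Tumor-macrophage against Ctrl-AM; adjusted 0.9, 0.3 and 0.3), but 3 samples against 3 cannot give a p under 0.1.

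H2-Q6 (ENSMUSG00000073409, chr17:35424850-35430055) belongs to the Qa-2 group of nonclassical heavy chains. Ctrl-AM had 4.35, 0.208 and 3.71 FPKM, Tumor-AM 25.4, 19.5 and 17.9, and Tumor-macrophage 67.7, 66.5 and 49.5. Ctrl-AM 2 lay far below the other control samples, and the groups did not overlap. The log2 difference was 2.80 ± 0.45 in Tumor-AM (7.60-fold in mean FPKM, adjusted p = 0.00419) and a further 1.50 ± 0.45 in Tumor-macrophage (2.92-fold, adjusted p = 0.0188). The first difference was 2.11 without Ctrl-AM 2 (adjusted p = 0.000399) and 3.58 with a pseudocount of 0.1 (adjusted p = 0.0219). The second call was lost in 5 of 18 settings. These were a pseudocount of 0.1 (adjusted p = 0.143), no filter on low values (0.130), and the fits without Tumor-AM 3 (0.0572), Tumor-macrophage 1 (0.0550) or Tumor-macrophage 2 (0.0510). The study also shows H2-Q6 among the genes most increased in Tumor-AM of these samples, so its rise is no independent evidence.

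Because reads may be shared within the Q cluster, the FPKM of H2-Q4, H2-Q5, H2-Q6, H2-Q7 and H2-Q8 were summed, a choice made after the data were seen. Ctrl-AM samples summed to 29.6, 30.9 and 26.1 FPKM, those of Tumor-AM to 97.5, 66.1 and 83.6, and those of Tumor-macrophage to 307, 314 and 291. The groups did not overlap and the low value of Ctrl-AM 2 for H2-Q6 did not appear in its sum. On the log2 scale the sum was 1.47 higher for Tumor-AM than for Ctrl-AM and 1.89 higher for Tumor-macrophage than for Tumor-AM, each with the smallest p that the exact permutation test allows (p = 0.1).

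The remaining heavy chain genes were counted next. Of 15 further class I heavy chain genes, 10 passed the filter and 6 of these rose in Tumor-AM relative to Ctrl-AM (H2-M2, H2-M3, H2-Q4, H2-Q5, H2-Q7 and H2-T23), with none lower and a median log2 difference of 0.57. All 10 were higher in Tumor-macrophage than in Tumor-AM, with a median of 1.16, but H2-M2 reached the minimum only through the groups of tumor-bearing mice and H2-T10 only through Tumor-macrophage. Among genes that reached it in each of the groups compared, 5 of 8 rose in Tumor-AM (median 0.57) and 9 of 9 were higher in Tumor-macrophage than in Tumor-AM (median 1.20). Shares of all genes tested that rose in these comparisons were 7.11% and 24.2%. H2-T23, which encodes the nonclassical molecule Qa-1, measured 157, 172 and 164 FPKM in the Ctrl-AM samples, 226, 231 and 231 in the Tumor-AM samples and 489, 464 and 440.2 in the Tumor-macrophage samples. Its differences were 0.48 ± 0.07 in Tumor-AM (adjusted p = 0.00178) and 1.01 ± 0.07 for Tumor-macrophage relative to Tumor-AM (adjusted p = 3.99e-07). H2-M3, which presents formylated peptides, showed differences of 0.55 ± 0.09 (adjusted p = 0.00483) and 1.03 ± 0.09 (adjusted p = 5.58e-06). H2-T22 and H2-T10 did not pass the threshold in Tumor-AM (differences of 0.002 ± 0.26 and 0.27 ± 0.15).

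Tap1 and Tap2, the subunits of the peptide transporter, lie on either side of Psmb8 on chromosome 17 and moved by different amounts. Tap1 (ENSMUSG00000037321, chr17:34187553-34197225) measured 10.2, 10.8 and 7.87 FPKM in the Ctrl-AM samples, 15.8, 21.98 and 17.5 in the Tumor-AM samples and 116, 121 and 94.2 in the Tumor-macrophage samples. Tap2 (ENSMUSG00000024339, chr17:34203527-34216321) measured 32.5, 33.9 and 35.9 FPKM in the Ctrl-AM samples, 40.5, 41.7 and 40.2 in the Tumor-AM samples and 70.6, 63.1 and 46.5 in the Tumor-macrophage samples. Tap1 was thus the lower of the pair per length in both AM groups and the higher in each Tumor-macrophage sample. In Tumor-AM, Tap1 rose 1.91-fold (log2 difference 0.87 ± 0.15, adjusted p = 0.00526), whereas Tap2 did not pass the threshold (1.20-fold, 0.25 ± 0.13, adjusted p = 0.264). In Tumor-macrophage, Tap1 was 5.99-fold above Tumor-AM (2.52 ± 0.15, adjusted p = 2.02e-07) and Tap2 1.47-fold (0.53 ± 0.13, adjusted p = 0.00637). The difference between the genes was not tested.

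Tapbp encodes tapasin, which bridges the transporter and empty class I molecules (ENSMUSG00000024308, chr17:33915899-33929292). Ctrl-AM samples held 129, 138 and 134 FPKM, those of Tumor-AM 194, 193 and 198 and those of Tumor-macrophage 336, 319 and 282. The spread among Tumor-AM samples was small, and the gene rose 1.46-fold in that group (log2 difference 0.54 ± 0.07, adjusted p = 0.00177). A further 1.60-fold separated Tumor-macrophage from Tumor-AM (0.67 ± 0.07, adjusted p = 2.43e-05).

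Among 7 other genes of peptide loading and trimming, 2 rose in Tumor-AM and none fell. These were Erap1, an aminopeptidase of the endoplasmic reticulum (log2 difference 0.46 ± 0.09, adjusted p = 0.0105), and Tapbpl, a peptide editor related to tapasin (0.34 ± 0.09, adjusted p = 0.0327). Both were higher again in Tumor-macrophage than in Tumor-AM (0.40 ± 0.09 and 0.57 ± 0.09), as was Pdia3, an oxidoreductase of the loading complex (0.24 ± 0.08, adjusted p = 0.0286). Calr and Canx, general chaperones that also fold class I chains, did not pass the threshold between Tumor-macrophage and Tumor-AM (0.02 ± 0.08 and -0.20 ± 0.09). Medians of the 7 were 0.21 and 0.20 in these comparisons, below those of the 10 genes (0.59 and 1.17). Shares of all genes tested that rose were 7.11% and 24.2%.

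**Figure D2:**
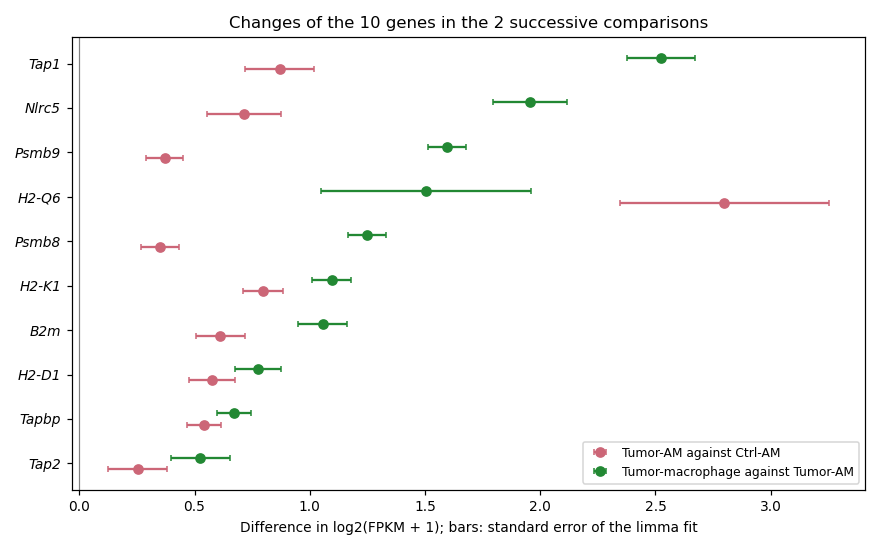
Differences in log2(FPKM + 1), with standard errors of the limma fit, for the 10 genes in Tumor-AM against Ctrl-AM and in Tumor-macrophage against Tumor-AM, sorted by the second. All differences are above 0, the Tumor-macrophage step runs from 0.53 for Tap2 to 2.52 for Tap1, and H2-Q6 is the 1 gene whose step is larger in Tumor-AM on this scale (2.80 against 1.50).

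Psmb8 and Psmb9 encode catalytic subunits of the immunoproteasome, LMP7 and LMP2. Psmb8 (ENSMUSG00000024338, chr17:34197721-34201454) measured 194, 192 and 188 FPKM in the Ctrl-AM samples, 227, 253 and 252 in the Tumor-AM samples and 583, 644 and 522 in the Tumor-macrophage samples. Psmb9 (ENSMUSG00000096727, chr17:34181987-34187764) measured 58.7, 60.3 and 59.4 FPKM in the Ctrl-AM samples, 74.9, 83.7 and 73.1 in the Tumor-AM samples and 241, 255 and 212 in the Tumor-macrophage samples. The step into Tumor-AM was small for both: 1.28-fold for Psmb8 (log2 difference 0.35 ± 0.08, adjusted p = 0.0250) and 1.30-fold for Psmb9 (0.37 ± 0.08, adjusted p = 0.0196). The step from Tumor-AM to Tumor-macrophage was 2.39-fold for Psmb8 (1.25 ± 0.08, adjusted p = 5.15e-07) and 3.05-fold for Psmb9 (1.60 ± 0.08, adjusted p = 8.06e-08).

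The calls of these subunits in Tumor-AM depended on the settings. With FPKM rescaled to the same sum in every sample (TPM), which shifts the median of all genes by -0.12, the differences were 0.21 for Psmb8 (adjusted p = 0.151) and 0.23 for Psmb9 (adjusted p = 0.124). Psmb8 also lost its call with a constant prior variance (adjusted p = 0.0567) and on leaving out any 1 Ctrl-AM sample, Tumor-AM 2 or Tumor-AM 3 (adjusted p from 0.0697 to 0.0937), and Psmb9 on leaving out any 1 Ctrl-AM sample or Tumor-AM 2 (0.0543 to 0.0748).

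Psmb10, the third immunoproteasome subunit, the regulator genes Psme1 and Psme2 (PA28) and the assembly factor Pomp did not pass the threshold in Tumor-AM (0 of 4, median log2 difference 0.09). In Tumor-macrophage against Tumor-AM 4 of 4 were higher, with differences of 0.72 ± 0.10 for Psmb10 (adjusted p = 0.000148), 1.10 ± 0.09 for Psme1 (adjusted p = 2.28e-06), 0.94 ± 0.13 for Psme2 (adjusted p = 0.000112) and 0.39 ± 0.10 for Pomp (adjusted p = 0.00634). Proteasome genes used by every form of the particle were compared with these. Of the 11 shared core subunits, 0 passed the threshold in Tumor-AM, and in Tumor-macrophage against Tumor-AM 2 rose (Psmb2 and Psmb4), 1 fell (Psma6) and 8 did not pass, with a median of 0.06. Of the standard catalytic subunits, Psmb6 rose (0.32 ± 0.08, adjusted p = 0.00524), Psmb5 fell by 0.36 (SE 0.12, adjusted p = 0.0296) and Psmb7 did not pass (0.15 ± 0.08). From Tumor-AM to Tumor-macrophage, 24.2% of all genes tested rose and 24.4% fell, and 7.11% rose in Tumor-AM relative to Ctrl-AM.

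**Figure D3:**
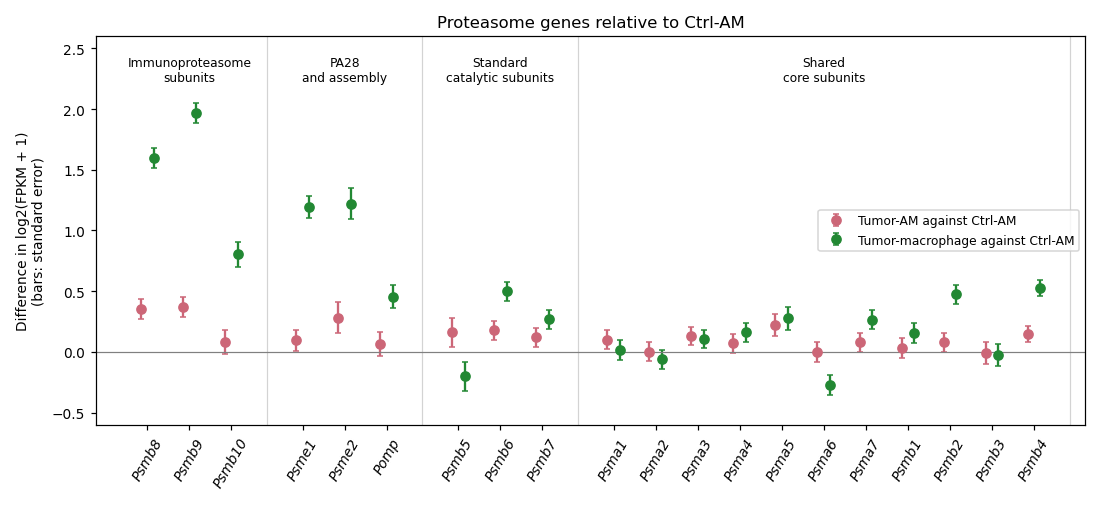
Differences in log2(FPKM + 1) from Ctrl-AM, with standard errors of the limma fit, for 20 proteasome genes in Tumor-AM and Tumor-macrophage. The largest are those of Psmb9 (1.97) and Psmb8 (1.60) in Tumor-macrophage, whereas the 11 core subunits lie between -0.27 and 0.52 in that group.

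The balance of immunoproteasome and standard subunits was followed as a ratio of FPKM within each sample. Psmb8 relative to Psmb5, whose place it takes, measured 0.822, 0.762 and 0.769 in the Ctrl-AM samples, 1.02, 0.807 and 0.870 in the Tumor-AM samples and 3.08, 2.76 and 2.43 in the Tumor-macrophage samples. The AM groups overlapped, and Tumor-macrophage stood apart from both. Psmb9 relative to Psmb6 measured 0.211, 0.228 and 0.221 in the Ctrl-AM samples, 0.267, 0.260 and 0.232 in the Tumor-AM samples and 0.660, 0.617 and 0.575 in the Tumor-macrophage samples, with no overlap. For Psmb10 relative to Psmb7, means were 1.10 ± 0.01 (SD, n = 3), 1.07 ± 0.03 and 1.61 ± 0.27.

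On the log2 scale the ratios were higher in Tumor-macrophage than in Tumor-AM by 1.62, 1.29 and 0.58 for Psmb8, Psmb9 and Psmb10 (exact permutation test, two-sided, p = 0.1 each, the smallest possible, adjusted over 9 tests 0.129). Between Tumor-AM and Ctrl-AM they differed by 0.19, 0.20 and -0.04 (exact permutation p = 0.2, 0.1 and 0.3, adjusted p = 0.225, 0.129 and 0.3). A ratio within a sample does not depend on the scaling of that sample.

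**Figure D4:**
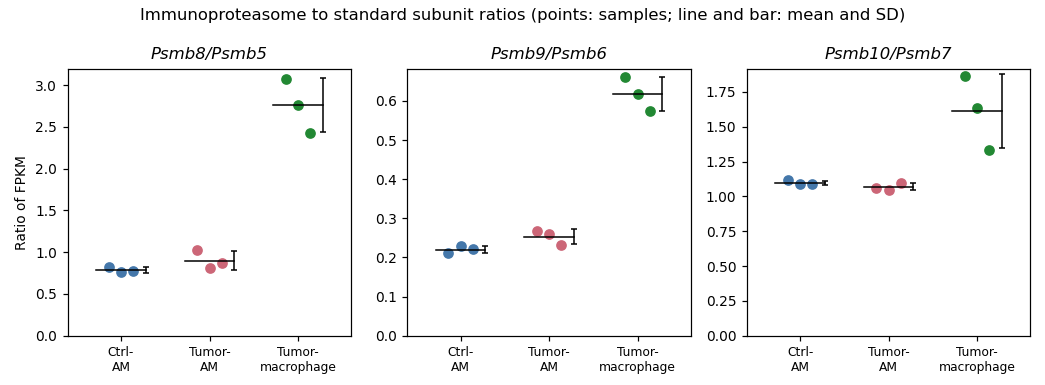
Ratio of FPKM (linear axis from 0) of each immunoproteasome subunit to the standard subunit it replaces, with 1 point per sample and the mean and SD of 3 samples. Tumor-macrophage lies above both AM groups in each panel, with mean ratios of 2.76, 0.617 and 1.61.

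Nlrc5, the class I transactivator (ENSMUSG00000074151, chr8:94434356-94527272), had the lowest mean FPKM of the 10 genes in each group. Ctrl-AM had 0.230, 0.508 and 0.381 FPKM, Tumor-AM 1.05, 1.67 and 1.06, and Tumor-macrophage 9.30, 7.18 and 6.79. With the estimated depths, the control values stand for 18, 46 and 35 reads, so that their order within the group carries little weight, but the groups did not overlap. The log2 difference, which the pseudocount of 1 makes smaller, was 0.71 ± 0.16 in Tumor-AM (3.38-fold in mean FPKM, adjusted p = 0.0204) and 1.95 ± 0.16 from there to Tumor-macrophage (6.15-fold, adjusted p = 2.68e-06). The call in Tumor-AM was lost without Ctrl-AM 1 (adjusted p = 0.0825), Ctrl-AM 3 (0.0660) or Tumor-AM 2 (0.0613).

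Genes of other factors that bind class I promoters were counted beside Nlrc5. Of 10 such genes (the RFX and NF-Y subunits, Creb1, Atf1, Rela and Nfkb1), 0 passed the threshold in Tumor-AM (median log2 difference -0.03). In Tumor-macrophage against Tumor-AM 4 rose (Atf1, Nfya, Nfyb and Rela), none by more than 0.46, and Nfyc fell by 0.58. Nfya reached the minimum only through Tumor-macrophage, and without it 3 of 9 rose. Over all genes tested, 24.2% rose and 24.4% fell in this comparison. Of 13 genes of interferon signalling, 5 rose in Tumor-AM and none fell: the receptor chains Ifnar2 and Ifngr2 and the interferon regulatory factors Irf1, Irf8 and Irf9. The share of all genes that rose in Tumor-AM was 7.11%. Irf1 measured 39.6, 42.6 and 34.2 FPKM in the Ctrl-AM samples, 68.9, 117 and 77.8 in the Tumor-AM samples and 185, 166 and 139 in the Tumor-macrophage samples.

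Irf1 was ordered as the class I genes were, with no overlap, and rose by 1.13 ± 0.18 in Tumor-AM (adjusted p = 0.00390). In Tumor-macrophage against Tumor-AM, 10 of the 13 rose and none fell, including Socs1, a feedback inhibitor of interferon signalling (2.52 ± 0.19, adjusted p = 1.33e-06). Socs1 reached the minimum only through Tumor-macrophage, and without it 9 of 12 rose. Over all 62 tested genes of these pathway lists, 13 rose and 1 fell in Tumor-AM, with a median of 0.17. In Tumor-macrophage against Tumor-AM, 35 rose and 6 fell, with a median of 0.35. Among those that reached the minimum in each of the groups compared, 12 of 58 and 32 of 59 rose. Shares of all genes tested were 7.11% up and 3.18% down in Tumor-AM, and 24.2% up and 24.4% down in Tumor-macrophage against Tumor-AM.

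Class II genes, which present extracellular peptides to CD4+ T cells, did not pass the threshold in Tumor-AM (0 of 5, median log2 difference 0.30). H2-Ab1 measured 525, 773 and 784 FPKM in the Ctrl-AM samples, 1316, 573 and 946 in the Tumor-AM samples and 18707, 14175 and 16872 in the Tumor-macrophage samples. The AM groups overlapped, with a difference of 0.39 ± 0.27 (adjusted p = 0.415). All 5 (Ciita, the class II transactivator, H2-Aa, H2-Ab1, H2-Eb1 and Cd74) were higher in Tumor-macrophage than in Tumor-AM, with a median of 4.14. Over all genes tested, 24.2% rose in that comparison.

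The 3 groups also differed in markers of other macrophages. Of the 4 tumor or interstitial macrophage markers, 3 rose in Tumor-AM relative to Ctrl-AM (C1qa, C1qb and C1qc), and none of them was at 0 in either group. Their sum ran from 16.96 to 21.8 FPKM over Ctrl-AM samples and from 56.7 to 114 over Tumor-AM samples, far below the sums of Tumor-macrophage given above. Of 4 monocyte markers, 3 rose in Tumor-AM (Ccr2, Fn1 and Ly6c2), and the sum was 63.3 to 84.4, 138 to 169.7 and 152 to 167 FPKM. Fn1, the matrix protein fibronectin, made up most of the sum in Tumor-AM, at 142, 120 and 147 FPKM. Other markers were lower in Tumor-AM relative to Ctrl-AM, namely Cd79a of B cells (log2 difference -1.20 ± 0.27, adjusted p = 0.0214) and S100a9 of neutrophils (-1.81 ± 0.39, adjusted p = 0.0173). The other 3 neutrophil markers did not pass the threshold (S100a8 0.60, Cxcr2 0.22 and Csf3r -0.22). Summed neutrophil markers overlapped, at 108 to 130 FPKM over Ctrl-AM samples and 110 to 164 over those of Tumor-AM. The summed B cell markers ran from 12.7 to 16.8 FPKM over Ctrl-AM samples and from 3.15 to 7.49 over those of Tumor-AM, with no overlap. In Tumor-macrophage the sums were higher than in Tumor-AM for markers of B cells (31.5 to 58.2 FPKM), of T and NK cells (16.5 to 31.9, against 4.74 to 15.2) and of dendritic cells (18.0 to 39.5, against 6.48 to 12.9). Nkg7 (mean 17.3 FPKM) and Ccr7 (25.3) made up most of the last 2 sums in Tumor-macrophage. Both rose from Tumor-AM, as did Cd3d and Xcr1, which reached the minimum only through Tumor-macrophage. Cd3e, Clec9a and Zbtb46 did not pass the threshold.

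To set the sizes side by side, the level in Tumor-AM was expressed as the percent of the way, in mean FPKM, from Ctrl-AM to Tumor-macrophage. C1qa stood at 0.331%, C1qb at 0.532%, C1qc at 0.335% and Cx3cr1 at 0.234%, and the monocyte markers Plac8, Ly6c2 and Ccr2 stood at 3.71%, 5.05% and 7.07%. Fn1 was highest in Tumor-AM and has no such value. As point values the class I genes stood higher, from 8.74% for Tap1, 10.1% for Psmb9, 12.0% for Nlrc5 and 13.5% for Psmb8 to 24.5% for B2m, 25.8% for Tap2, 27.1% for H2-K1, 31.1% for H2-Q6, 31.4% for H2-D1 and 34.3% for Tapbp. On leaving out 1 sample at a time, B2m ranged from 19.6% to 27.6% and Tap1 from 6.97% to 10.0%. Tap1 and Psmb9 (8.24% to 11.3%) overlap the range of Ccr2 (4.79% to 8.61%), and Tap1 also that of Plac8 (-1.30% to 7.10%). The part of these markers in the class I differences was not tested beyond these values.

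**Figure D5:**
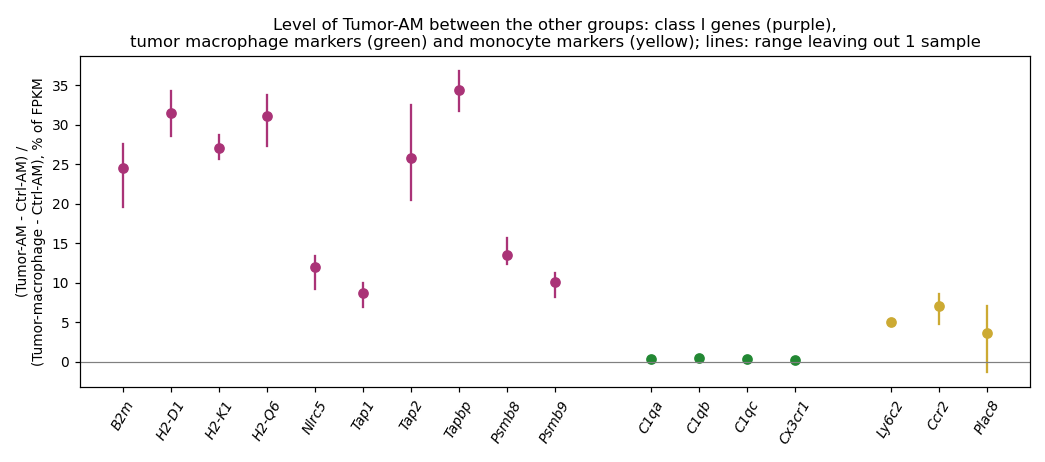
Level of Tumor-AM as a percent of the way from Ctrl-AM to Tumor-macrophage in mean FPKM (points), with the range on leaving out 1 sample (lines), for the 10 class I genes, 4 tumor macrophage markers and 3 monocyte markers. The class I genes lie between 8.74% and 34.3%, the tumor macrophage markers between 0.234% and 0.532% and the monocyte markers between 3.71% and 7.07%.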

How the data were processed

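The authors extracted RNA from sorted cells, amplified cDNA with SMART-Seq HT, made Nextera libraries and sequenced single-end reads of 75 bases. They mapped these to mm10 with TopHat2 2.1.1 and Bowtie2 and deposited FPKM from Cufflinks (Cuffdiff 2.2.1 in their processing notes). The annotation, the handling of reads that match several genes and the use of strand are not given in the sources used here.

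FPKM are not counts, so log2(FPKM + 1) was fitted with limma 3.58.1 (R 4.3.3, intensity trend in the prior variance), with all 9 samples sharing 1 spread. Of 24346 genes, 10686 reached 1 FPKM in 3 or more samples and were tested. Tests were two-sided and adjustment (Benjamini-Hochberg, threshold 0.05) covered every gene tested, and the fit was tested on simulated data. Differences understate changes of low genes. Single ratios were compared by exact permutation tests (scipy 1.17.1). Errors are SD of 3 samples, or SE of the fit.

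Depth was estimated from low values. In 421 of 1256 genes (33.5%) these were, within 3%, whole multiples of the lowest nonzero value of the gene. That lowest value was taken as 1 read, an assumption on which all read numbers rest. The estimate also rests on full transcript lengths and covers counting error only. FPKM summed to between 635560 and 785745 per sample. Shared windows and positions came from GENCODE vM21 (GRCm38, also called mm10), and promoters from RefSeq (GRCm38.p6).

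Named genes were the 10 genes, members of written lists, genes sharing windows with them and the 5 genes most like them. A few genes of the lists are not reported here and were left out of their counts and sums. The genes and lists were chosen with earlier results of these data known. Alternatives were another pseudocount, other filters, scalings and priors, a 2-group fit, a 2-fold minimum, a replicate block and leaving out each sample.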

Additional observations from a re-analysis of the deposited data

How the results depend on the processing

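In Tumor-AM against Ctrl-AM, 9 of the 10 genes passed the threshold. With no filter on low values, and thus 24346 genes tested, 2 did (H2-K1 and Tapbp), and 9 of the 10 had an unadjusted p under 0.05 (limma). Over all genes 348 rose without the filter, in place of 760. With a 2-fold change required, 1 of the 10 genes passed. It was H2-Q6, which passed the filter on low values only through the groups of tumor-bearing mice. Shares of all genes at that change are not given here. The other pathway genes called in this comparison numbered 14, against 8 with no filter and 4 with the 2-fold minimum. With that minimum, 17 in place of 41 passed for Tumor-macrophage against Tumor-AM and 24 in place of 47 for Tumor-macrophage against Ctrl-AM. Leaving out 1 sample at a time gave 6 to 9, 9 to 10 and 10 of the 10 genes in the 3 comparisons. The 6 came without Ctrl-AM 1, Ctrl-AM 3 or Tumor-AM 2, where 406, 424 and 603 of all genes rose, in place of 760. Differences of the 10 genes and subunit ratios kept their direction in the alternatives run. The exception was quantile normalization, which set H2-D1 to 0 between Tumor-macrophage and Tumor-AM. Tap2 passed in Tumor-AM with only the 2 groups fitted (adjusted p = 0.0496).

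Scaling moved the balance of all genes. In Tumor-AM against Ctrl-AM, 760 genes rose and 340 fell, against 468 and 837 with TPM, which shifts the median of all genes by -0.12, 607 and 446 with quantile normalization and 692 and 361 with median ratios. The TPM medians were -0.08 for Tumor-macrophage against Tumor-AM and -0.21 against Ctrl-AM.

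Groups share replicate numbers, and 3 samples per group cannot settle whether these pair the samples. Ctrl-AM came from other mice than the tumor groups, so only Tumor-AM and Tumor-macrophage samples could share a mouse. Residuals of same-numbered samples correlated from -0.06 to 0.16, over 0.1 in 2 of 9 pairs, and those of other samples from -0.15 to 0.10. Of the 9 samples, 7 correlated best with their own number. Between Tumor-AM and Tumor-macrophage, same-numbered samples correlated at 0.03, 0.10 and 0.11, and the others from -0.10 to 0.006. With the replicate number as a block, 9, 10 and 10 of the 10 genes passed and 13, 40 and 46 of the other pathway genes. Over all 10686 genes tested, 658, 2531 and 2915 rose and 280, 2538 and 2857 fell with this block. With 3 samples per group, H2-Q6 and Nlrc5 had the largest standard errors of the 10 genes (0.45 and 0.16). Their Ctrl-AM values stand for an estimated 95, 5 and 93 reads and 18, 46 and 35 reads. What set the spread of H2-Q6 was not tested.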

Other observations

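Of 4 genes of class I-like proteins that pair with beta-2-microglobulin, 3 were lower in Tumor-macrophage relative to Tumor-AM and 1 was higher. Over all genes tested, 24.4% fell and 24.2% rose in that comparison. Fcgrt, the neonatal Fc receptor, measured 350.4, 350.2 and 355 FPKM in the Ctrl-AM samples, 288, 245 and 277 in the Tumor-AM samples and 123, 112 and 121 in the Tumor-macrophage samples. The groups did not overlap, in the order opposite to that of B2m, with log2 differences of -0.38 ± 0.07 in Tumor-AM (limma, adjusted p = 0.00927) and -1.18 ± 0.07 from Tumor-AM to Tumor-macrophage (adjusted p = 3.23e-07). Cd1d1, which presents lipids, measured 42.7, 40.2 and 40.8 FPKM in the Ctrl-AM samples, 54.9, 73.0 and 56.2 in the Tumor-AM samples and 9.89, 5.30 and 6.91 in the Tumor-macrophage samples. It was highest in Tumor-AM, but its difference from Ctrl-AM did not pass the threshold (0.55 ± 0.18, adjusted p = 0.0806), and Tumor-macrophage lay below Tumor-AM (-2.92 ± 0.18, adjusted p = 2.56e-07). Mr1, which presents vitamin B metabolites, also fell from Tumor-AM to Tumor-macrophage (-0.79 ± 0.17, adjusted p = 0.00271), whereas Hfe, a regulator of iron uptake, was higher (1.50 ± 0.11, adjusted p = 9.05e-07).

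Among 5253 genes with a mean FPKM of at least 10 outside the lists, 34 had a Pearson r of at least 0.99 over the 9 samples with the mean standardized level of the 10 genes. The 5 most alike were Gbp3 (r = 0.997), Slamf8 (0.996), Slc7a8 (0.995), Socs3 (0.995) and AB124611 (0.994). These r describe 9 samples in 3 groups and carry no test. Gbp3, an interferon-inducible GTPase, had means of 1.60 ± 0.24 FPKM (SD, n = 3) for Ctrl-AM, 6.27 ± 1.09 for Tumor-AM and 62.2 ± 5.93 for Tumor-macrophage. Slamf8 had means of 0.185 ± 0.08, 4.08 ± 0.79 and 149 ± 28.7 FPKM in the same order.

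Tap1 and Psmb9 are transcribed away from each other, and their RefSeq starts are separated by 225 bases (chr17:34187331-34187555). This gap exists in RefSeq only: all 225 bases lie in exons of GENCODE, where the genes overlap. That interval holds 1 CCAAT box and 1 TGACG. The log2 differences of the pair were 0.87 and 0.37 in Tumor-AM against Ctrl-AM, and 2.52 and 1.60 in Tumor-macrophage against Tumor-AM.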
